A study of Mus musculus with 36 samples.

Results

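The calmodulin-dependent kinase genes described here are 7 of the 56748 genes in the count table. They were taken by gene symbol: Camk2a, Camk2b, Camk2d and Camk2g, which encode the alpha, beta, delta and gamma subunits of CaMKII, together with Camk4, Camk1d and the upstream kinase gene Camkk2. The set was chosen by a result of the same data, the lower level of Camk2b in HP1a KO than in HP1a WT Tconv, so for that contrast all 7 genes are given as a description with no test, and the Tconv values of Camk2b in the HP1a line are never tested.

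RNA was sequenced from mouse splenic CD4 T cells of 12 groups with 3 libraries each. The HP1a line carried a LoxP-flanked Cbx5 allele crossed to CMV-cre, so its KO lacked HP1a throughout the animal. The HP1g line carried a floxed Cbx3 allele with Cd4-cre, which acts in T cells. Both lines were kept on a mixed background that included C57BL/6. Sex-matched WT littermates, all young adults, served each line. In the HP1a line WT means unmutated Cbx5 alleles, from crosses of heterozygous mice. WT littermates of the HP1g line carried the floxed Cbx3 alleles without Cd4-cre. Within the HP1g line the loss of HP1g thus cannot be told apart from the presence of Cre. Naive cells were purified from WT or KO spleens. Tconv were conventional T cells recovered from the spleen of lethally irradiated C57BL/6 or CD45.1+ B6 mice 3 weeks after a graft of C57BL/6 and B6D2F1 bone marrow given with WT or KO naive CD4 T cells, sorted as TCR Vb6 positive cells, and Tconv with Treg came from hosts that also received expanded WT regulatory T cells (Treg), which the sort gated out by their Thy1.1 tag. Bone marrow and host were not mutant in any group, so KO refers to the transferred T cells. The lines were bred apart and differ in Cre. In any comparison between lines the missing protein thus cannot be told apart from other differences between the lines. One library of HP1g KO Tconv with Treg, set aside by the study for quality, was left out, which leaves 35 libraries and n = 2 in that group.

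Total estimated counts ranged from 37029519 to 63042245 per library, and no pair of replicates was identical. Replicate 3 of HP1a WT Tconv with Treg had the lowest correlations between replicates, at 0.9355 and 0.9262 with the other libraries of its group. Cbx5 averaged 10.9 ± 1.52 (SD) CPM, counts scaled by library size, in naive HP1a KO cells against 22.3 ± 3.23 in WT, and Cbx3 averaged 71.8 ± 8.12 CPM in naive HP1g KO cells against 141 ± 51.6 in WT, n = 3 each; both transcripts kept a level in the KO. All 10 genes of a fixed T cell list averaged at least 1 CPM in every group. Summed neutrophil markers reached 480 CPM in HP1a KO Tconv with Treg and 644 CPM in HP1g WT Tconv, and stayed at or below 3.17 CPM in all naive libraries. In these bulk libraries fewer expressing cells and less RNA per cell cannot be told apart. The sample descriptions number the naive libraries in series of their own, so a difference in library handling between naive cells and Tconv cannot be told apart from the activation itself, and nothing in the labels says which libraries shared an animal, so p-values measure the spread between libraries.

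When an antigen receptor is engaged, Ca2+ released from the endoplasmic reticulum and entering through the plasma membrane loads calmodulin, which then activates both the phosphatase calcineurin, and with it NFAT, and the calmodulin-dependent kinases. CaMKII is a ring of subunits that phosphorylate each other and so keep activity after Ca2+ has fallen. CaMKK2 phosphorylates and activates CaMKI and CaMKIV, and CaMKIV, found largely in the nucleus, phosphorylates CREB and related factors in T cells.

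Camk2b lies on chromosome 11 (GRCm39, chr11:5915791-6016362, minus strand), Camk2g on chromosome 14 (chr14:20784942-20844541, minus strand) and Camk2d on chromosome 3 (chr3:126389945-126639982, plus strand). The 250 bases before the first annotated base of each are printed 5′ to 3′ because the activation values turn on these CaMKII genes. Capitals mark matches, on either strand, to GGAAA, the core recognised by NFAT, and to TGACGTCA, the palindromic cAMP response element recognised by CREB. The windows are chr11:6016363-6016612, chr14:20844542-20844791 and chr3:126389695-126389944.
Camk2b: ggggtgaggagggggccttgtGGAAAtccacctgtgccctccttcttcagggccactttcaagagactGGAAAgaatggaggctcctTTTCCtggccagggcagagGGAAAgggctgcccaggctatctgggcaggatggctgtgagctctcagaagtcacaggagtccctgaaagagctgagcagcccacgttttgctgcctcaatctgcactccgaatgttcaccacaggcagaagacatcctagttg
Camk2g: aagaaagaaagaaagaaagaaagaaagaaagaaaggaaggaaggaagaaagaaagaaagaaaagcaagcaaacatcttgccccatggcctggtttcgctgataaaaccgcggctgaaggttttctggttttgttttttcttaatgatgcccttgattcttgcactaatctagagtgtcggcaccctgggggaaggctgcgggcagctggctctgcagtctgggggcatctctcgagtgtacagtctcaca
Camk2d: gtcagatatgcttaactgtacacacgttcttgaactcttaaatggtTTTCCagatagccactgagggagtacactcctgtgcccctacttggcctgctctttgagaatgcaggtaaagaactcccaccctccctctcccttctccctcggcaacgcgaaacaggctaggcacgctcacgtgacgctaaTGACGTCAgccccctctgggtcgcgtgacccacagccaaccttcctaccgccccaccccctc

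The Camk2b window held 4 matches to GGAAA. Of 21770 such windows before protein-coding genes, 58.6% held GGAAA at least once, and the share with 4 was not counted. The Camk2d window held 1 match to GGAAA and 1 to TGACGTCA, the latter present in 1.31% of windows. The Camk2g window held neither, and none of the 3 windows held the AP-1 letters TGANTCA, present in 6.46% of windows. Camk2b, Camk2g and Camk2d have 113, 105 and 91 annotated transcripts. The outermost annotated base need not be the start used in T cells, so the windows need not be promoters. These are descriptions of the letters in the window. CpG dinucleotides numbered 2 in the Camk2b window, 6 in that of Camk2g and 11 in that of Camk2d, against a median of 6.

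Per length, Camk4 and Camk2d were the most abundant members and Camk2a was near 0. In naive HP1a WT cells the mean level per kilobase of the canonical transcript was 24.7 CPM for Camk4, 16.1 for Camk2d, 7.21 for Camk1d, 6.88 for Camkk2, 2.92 for Camk2g and 1.36 for Camk2b. In HP1a WT Tconv the same quantity was 25.9 CPM for Camk4, 12.8 for Camk2d, 8.18 for Camk2b, 7.67 for Camk1d, 7.23 for Camkk2 and 6.07 for Camk2g. The CaMKII genes have many annotated isoforms, and per kilobase of all annotated exons the order in naive HP1a WT cells changed, with Camk1d at 6.76, Camk4 at 5.38 and Camk2d at 4.44 CPM. All further levels are CPM, which are compared only within a gene.

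Camk2b, the subunit gene best known from brain, was low in naive cells of both lines and higher in Tconv, except in HP1a KO Tconv. The 3 naive HP1a WT libraries held 2.92, 5.92 and 2.66 CPM and the naive HP1a KO libraries 3.43, 5.30 and 4.06 CPM. The naive HP1g WT libraries held 4.61, 2.86 and 2.86 CPM and the HP1g KO libraries 3.93, 4.39 and 4.74 CPM. No naive library thus exceeded 5.92 CPM, and the 4 naive groups overlapped.

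The HP1a WT Tconv libraries held 22.7, 24 and 22.6 CPM of Camk2b and the HP1a KO Tconv libraries 8.56, 4.47 and 5.04 CPM. These are the values that chose the set: every KO library was below every WT library, and 2 of the KO values lay within the naive range. The fitted log2 fold change, KO minus WT, was -1.94 (SE 0.239), given without a test; 0.103% of the 15521 genes fitted in this contrast were called. Without HP1a KO Tconv replicate 1 it was -2.28, and leaving out any other library gave -1.77 to -1.95. The summed T cell markers ran from 8586 to 8675 CPM in KO and from 9373 to 9854 CPM in WT Tconv, macrophage or monocyte markers from 13.9 to 280 against 5.64 to 6.88 CPM, and erythroid markers from 26.5 to 779 against 1.80 to 3.44 CPM; their part in the Camk2b values was not tested.

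The other 5 expressed members, described in the same contrast, stayed close to no difference. Their log2 fold changes were 0.21 (SE 0.0838) for Camk2d, -0.08 (SE 0.145) for Camk2g, -0.03 (SE 0.0728) for Camk4, 0.0032 (SE 0.175) for Camk1d and -0.08 (SE 0.130) for Camkk2. KO and WT libraries overlapped for all 5.

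**Figure D1:**
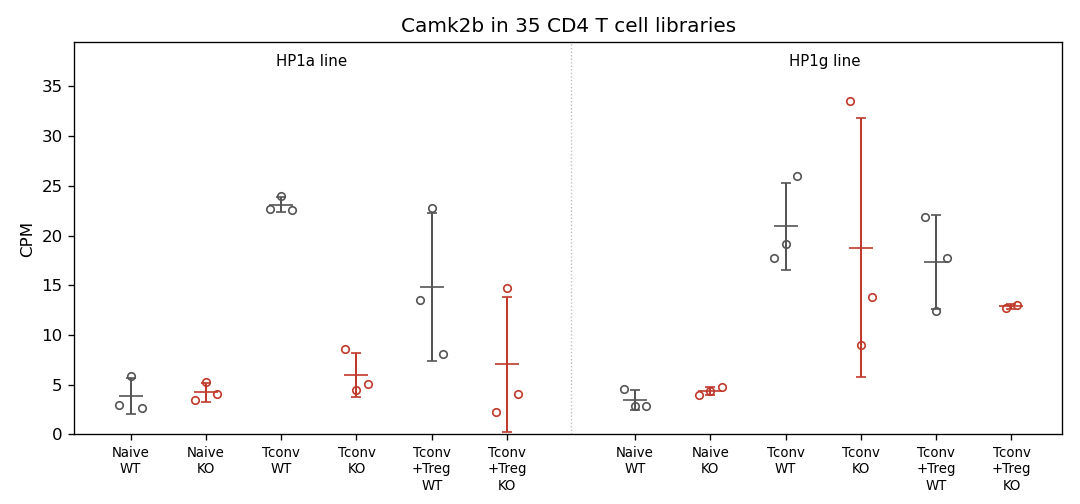
Camk2b in CPM (y axis, linear from 0) in each of the 35 libraries, by group (x axis), WT in grey and KO in red; circles are libraries, the dash is the mean and the bar the SD. The HP1a KO Tconv libraries lie between 4.47 and 8.56 CPM while the HP1a WT Tconv libraries lie between 22.6 and 24 CPM.

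In the HP1g line, which the choice of the set did not use, Camk2b rose on activation. HP1g WT Tconv held 17.7, 19.2 and 25.9 CPM and HP1g KO Tconv 33.5, 8.99 and 13.8 CPM, all above every naive library of the line. Tconv minus naive, the log2 fold change was 2.60 (SE 0.276, adjusted p = 0.000309) in HP1g WT and 2.13 (SE 0.473, adjusted p = 0.0101) in HP1g KO cells by edgeR's quasi-likelihood test. In HP1g KO cells the call was lost without naive replicate 1 (adjusted p = 0.0502) and with no filter on low counts (adjusted p = 0.0598). Summed erythroid markers ran from 9.95 to 51.2 CPM in naive HP1g WT cells and from 78.0 to 5089 CPM in HP1g WT Tconv, macrophage or monocyte markers from 4.01 to 6.49 and from 26.4 to 72.2 CPM, and Treg markers from 113 to 162 and from 352 to 449 CPM. HP1g KO Tconv replicate 1, with the highest Camk2b, held 3420 CPM of erythroid markers against 162 and 323 CPM in the other two, and the part of these markers in the rise was not tested. The corresponding values in the HP1a line, not tested, were 2.60 (SE 0.306) in WT and 0.52 (SE 0.309) in KO cells.

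The genotype effect on Camk2b in HP1g Tconv did not pass the test (log2 fold change -0.14, SE 0.482, adjusted p = 0.968), and the 3 HP1g KO Tconv libraries lay on both sides of the WT libraries. The activation effect of HP1g KO against that of HP1g WT cells differed by -0.45 (SE 0.553, adjusted p = 0.768). Camk2b shares 1813 exon bases with Ykt6, a SNARE gene on the other strand, and the library kit does not keep strand; Ykt6 averaged 76.8 ± 3.29 CPM in HP1a KO and 73.9 ± 6.39 CPM in HP1a WT Tconv, n = 3 each.

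With Treg, HP1a WT Tconv held 13.6, 22.8 and 8.05 CPM of Camk2b and HP1a KO Tconv 2.26, 14.8 and 4.11 CPM, and the groups overlapped. KO minus WT was -1.08 (SE 0.705, adjusted p = 0.591 by edgeR's quasi-likelihood test); this comparison shares no library with the one that chose the set. HP1g WT held 21.9, 12.4 and 17.7 CPM and HP1g KO 12.7 and 13.1 CPM (log2 fold change -0.42, SE 0.263, adjusted p = 0.609). In the HP1a KO group summed neutrophil markers ran from 274 to 480 CPM against 1.59 to 40.3 CPM in WT, and their part in these values was not tested.

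By group mean, Camk2b thus ran from 3.44 CPM in naive HP1g WT cells, through 6.02 ± 2.21 CPM in HP1a KO Tconv and 7.04 ± 6.75 CPM in HP1a KO Tconv with Treg, to 21.0 ± 4.38 CPM in HP1g WT Tconv and 23.1 ± 0.770 CPM in HP1a WT Tconv. Between them stood HP1g KO with Treg (12.9 ± 0.283 CPM, n = 2), HP1a WT with Treg (14.8 ± 7.44 CPM), HP1g WT with Treg (17.3 ± 4.77 CPM) and HP1g KO Tconv (18.8 ± 13 CPM), with n = 3 unless given. Neighbours in this order lay within their spread.

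Camk2g, the gamma subunit gene, was higher in Tconv than in naive cells in every line and genotype. Naive libraries of all 4 groups held 7.65 to 13.4 CPM and Tconv libraries of all 4 groups 16.4 to 25.6 CPM, with no overlap. Here and in the other activation comparisons, the share of all genes without overlap was not counted. The log2 fold change was 1.06 (SE 0.190, adjusted p = 0.0022) in HP1a WT, 1.13 (SE 0.218, adjusted p = 0.00531) in HP1a KO, 0.87 (SE 0.191, adjusted p = 0.0103) in HP1g WT and 1.02 (SE 0.206, adjusted p = 0.00438) in HP1g KO cells by the same test. Calls needed an adjusted p under 0.05 together with a log2 fold change beyond 1 in either direction, so the HP1g WT value fell short on the fold alone, and the calls turned on that threshold when a library was left out. They were lost without replicate 3 of naive cells (0.94) or of Tconv (0.96) in HP1a WT, and without naive replicate 2 (0.96) or Tconv replicate 1 (0.999) in HP1a KO cells. In HP1g KO cells they were lost without naive replicate 2 (0.90) or 3 (0.93) or Tconv replicate 1 (0.87), while HP1g WT cells gained one without Tconv replicate 1 (1.01). Summed dendritic cell markers ran from 0.824 to 3.27 CPM in naive and from 8.14 to 32.0 CPM in Tconv libraries. Itgax, 1 of the 6 genes of this list, ran by group mean from 0.0664 to 20.7 CPM over the 12 groups. In HP1a WT Tconv 3 of the 6 genes were at 0, and 2 averaged at least 1 CPM. The part of the list in the Camk2g values was not tested.

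Camk2d, the delta subunit gene, had activation fold changes of opposite sign in the lines, all smaller than the fold threshold. In the HP1a line naive KO libraries held 130, 127 and 129 CPM and KO Tconv 110, 98.9 and 119 CPM. In the HP1g line naive KO libraries held 87.6, 90.0 and 105 CPM and KO Tconv 139, 134 and 129 CPM. Every KO Tconv library was thus below its naive group in the HP1a line and above it in the HP1g line.

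The Camk2d log2 fold change, Tconv minus naive, was -0.22 (SE 0.0814, adjusted p = 0.0662) in HP1a KO and 0.53 (SE 0.109, adjusted p = 0.00495) in HP1g KO cells. The difference between these effects, a comparison added after the values were seen, was -0.73 (SE 0.131, adjusted p = 0.0276 by edgeR's quasi-likelihood test). Its adjusted p ranged from 0.00015 to 0.29 over the alternatives, the highest with all libraries in one fit, and its adjusted p stayed under 0.05 in 5 of the 12 fits that left out a library. It did not without naive HP1a KO replicate 2 or 3, naive HP1g KO replicate 1 or 2, HP1a KO Tconv replicate 2 or HP1g KO Tconv replicate 2 or 3, where the difference ran within -0.83 to -0.68, the range over all 12 fits. In WT cells the values were -0.32 (SE 0.0843, adjusted p = 0.0149) in the HP1a and 0.13 (SE 0.233, adjusted p = 0.704) in the HP1g line, with a difference of -0.45 (SE 0.264, adjusted p = 0.35).

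Camk1d, a CaMKI gene, was higher in HP1g Tconv than in naive cells, past the adjusted p but below the fold threshold. Naive HP1g WT libraries held 40.2, 26.6 and 40.6 CPM and Tconv 56.0, 66.5 and 62.7 CPM (log2 fold change 0.78, SE 0.199, adjusted p = 0.0196). In HP1g KO cells the levels went from 41.8, 47.6 and 50.1 CPM to 59.3, 66.8 and 79.6 CPM (0.58, SE 0.130, adjusted p = 0.00713). In the HP1a line the values were 0.10 (SE 0.160) in WT and 0.08 (SE 0.122) in KO cells, with adjusted p = 0.645 and 0.653, and the groups overlapped. The difference between lines did not pass the test in WT (-0.69, SE 0.270, adjusted p = 0.226) or in KO cells (-0.49, SE 0.185, adjusted p = 0.214).

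Camk4 and Camkk2 did not pass the test on activation in any line or genotype. Camk4 log2 fold changes lay between -0.19 (SE 0.119) and 0.09 (SE 0.0863), and Camkk2 between -0.09 (SE 0.137) and 0.34 (SE 0.160). Among the members tested on activation, those called were 1 of 5 in HP1a WT, 1 of 5 in HP1a KO, 1 of 6 in HP1g WT and 2 of 6 in HP1g KO cells, all higher. Over all genes, 12.9%, 12.4%, 15% and 15.7% were called higher and 10.2%, 7.24%, 8.55% and 7.3% lower in the same order. With no fold threshold 2, 1, 3 and 4 members passed, beside 45.7%, 40.6%, 31.4% and 41.1% of all genes, and beside such backgrounds the shares of so few genes are no result about the members.

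**Figure D2:**
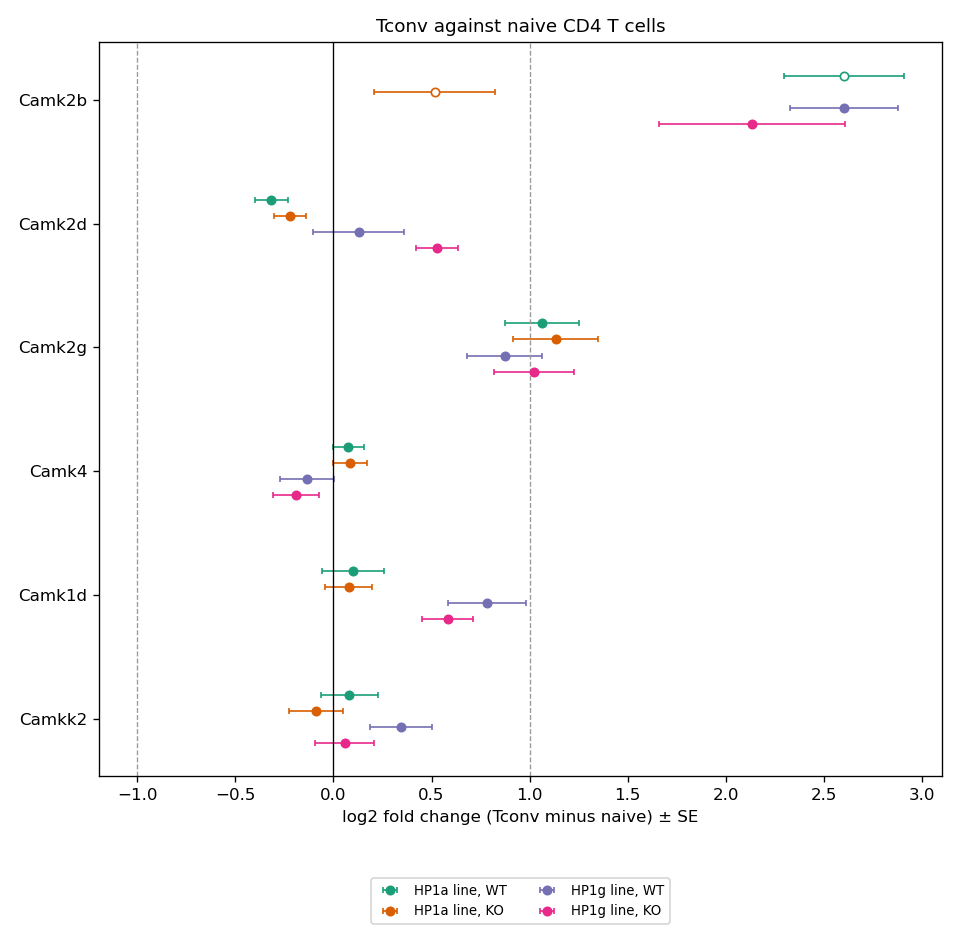
Log2 fold change of Tconv over naive cells (x axis) for 6 members (y axis) in WT and KO cells of each line, with bars for the SE and dashed lines at the fold threshold; open circles mark values given without a test. Camk2b stands at 2.13 to 2.60 in all but HP1a KO cells, where it stands at 0.52, and Camk2g between 0.87 and 1.13.

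**Figure D3:**
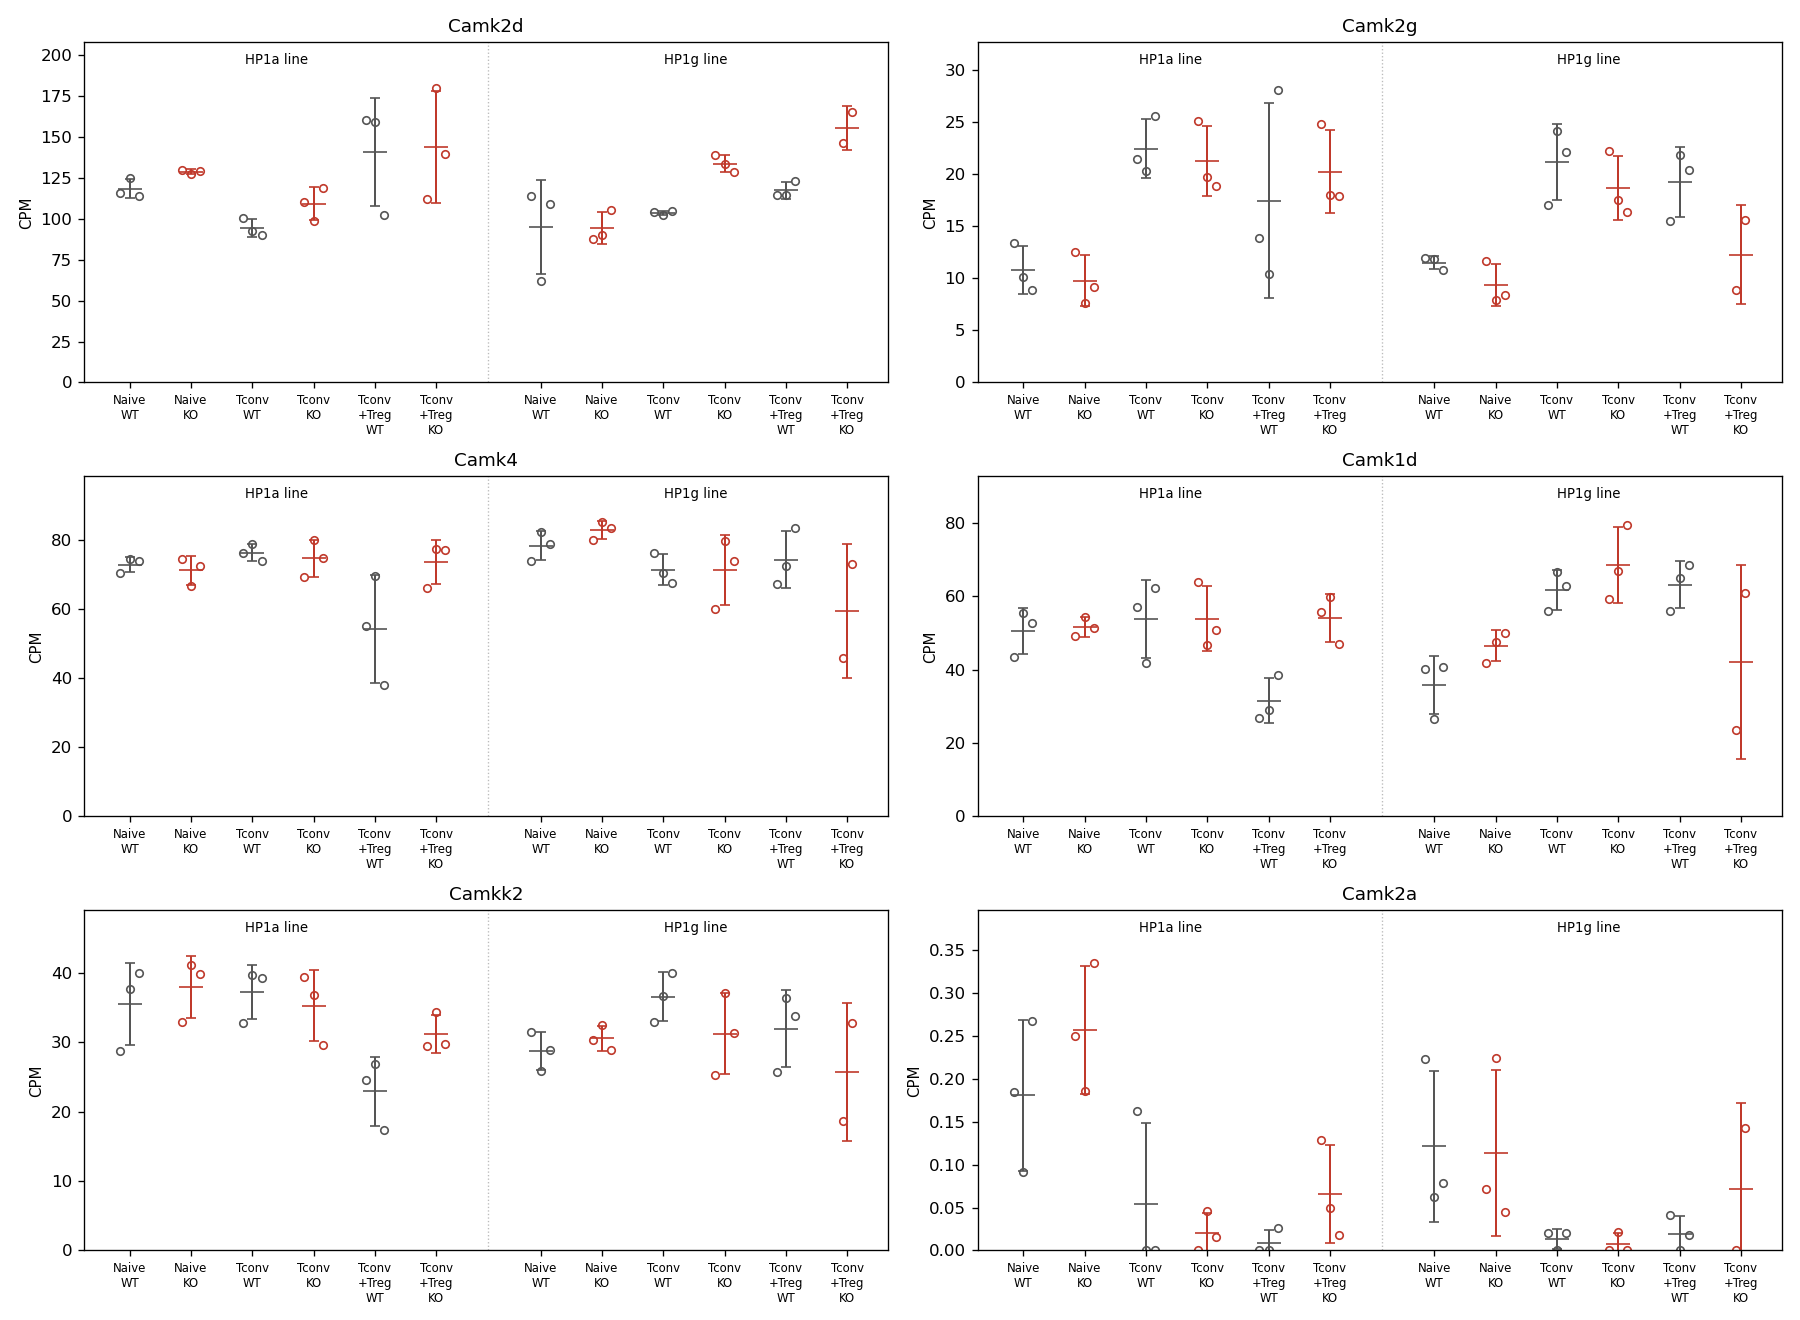
CPM (y axes, linear from 0) of the other 6 members in each library by group (x axes), drawn as circles with the mean and SD, WT in grey and KO in red; bars that would pass below 0 are cut at 0. Camk2g libraries of naive cells stay at or below 13.4 CPM, and Camk2a does not exceed 0.335 CPM.

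Between KO and WT, no tested member was called in naive cells, in HP1g Tconv or in Tconv with Treg. Over all genes the percentage called was 0% in HP1a naive cells, 0.00669% in HP1g naive cells, 0.0437% in HP1g Tconv, 0.123% in HP1a and 0% in HP1g Tconv with Treg, so few genes of any kind passed. At an unadjusted p under 0.05 stood 0, 0, 1, 1 and 1 members, beside 291, 863, 1349, 1975 and 2028 of all genes, and DESeq2 called 0 members in each beside 15, 38, 258, 707 and 605 of all genes.

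The differences with an unadjusted p under 0.05 were those of Camk1d in the HP1a line with Treg and of Camk2d in the HP1g line with and without Treg. With Treg, Camk1d held 55.6, 59.8 and 47.1 CPM in HP1a KO against 26.9, 29.1 and 38.5 CPM in HP1a WT (log2 fold change 0.76, SE 0.201, adjusted p = 0.198 by edgeR's quasi-likelihood test; DESeq2 adjusted p = 0.0271). Every KO library was above every WT library, and the share of all genes that do so was not counted. Summed Treg markers ran from 317 to 492 CPM in these KO and from 720 to 945 CPM in these WT libraries, and their part in the difference was not tested.

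Camk2d was higher in HP1g KO than WT Tconv, at 139, 134 and 129 against 104, 103 and 105 CPM (0.38, SE 0.0752, adjusted p = 0.218 by edgeR's quasi-likelihood test). With Treg it held 146 and 165 CPM in HP1g KO against 114, 115 and 123 CPM in WT (0.42, SE 0.117, adjusted p = 0.257). Neither passed the correction. The groups did not overlap in either, and the share of all genes without overlap was not counted. Camk2d in HP1a naive cells, Camk1d in HP1g naive cells and Camkk2 in HP1a Tconv with Treg did not overlap between genotypes either, none called. With Treg the summed Treg markers also did not overlap, at 584 and 1191 CPM in HP1g KO against 434 to 510 CPM in WT, and their part in the difference was not tested. Same-numbered libraries deviated together in the HP1g comparisons without and with Treg. A fit with the number as a replicate block called no member in either, beside 74 and 30 of all genes.

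The KO effect on Camk1d in Tconv with Treg pointed in opposite directions in the lines. It was 0.76 in the HP1a and -0.57 (SE 0.387) in the HP1g line, where the KO libraries held 23.5 and 60.8 CPM and the WT libraries 56.0, 64.9 and 68.4 CPM. The difference was 1.33 (SE 0.450, adjusted p = 0.147 by edgeR's quasi-likelihood test), with 2.72% of all genes called. DESeq2 gave an adjusted p of 0.0448, a single fit of all libraries 0.00858, and the fit without HP1g KO replicate 2 gave 2.20 with 0.00751. The 2 HP1g KO libraries lay far apart: without replicate 1, the low one, the difference was 0.83 (adjusted p = 0.401), and with the library that the study set aside it was 0.92 (adjusted p = 0.554). Replicate 1 held 1191 CPM of summed Treg markers and 6271 CPM of erythroid markers, against 584 and 115 CPM in replicate 2, while the WT libraries held 434 to 510 CPM of Treg and 157 to 3571 CPM of erythroid markers; their part in the Camk1d values was not tested. Without replicate 2 a lone library stands for the group and is assumed to vary like the others; in that fit Camk1d was also called between HP1g KO and WT with Treg and in the genotype effect on the Treg difference.

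**Figure D4:**
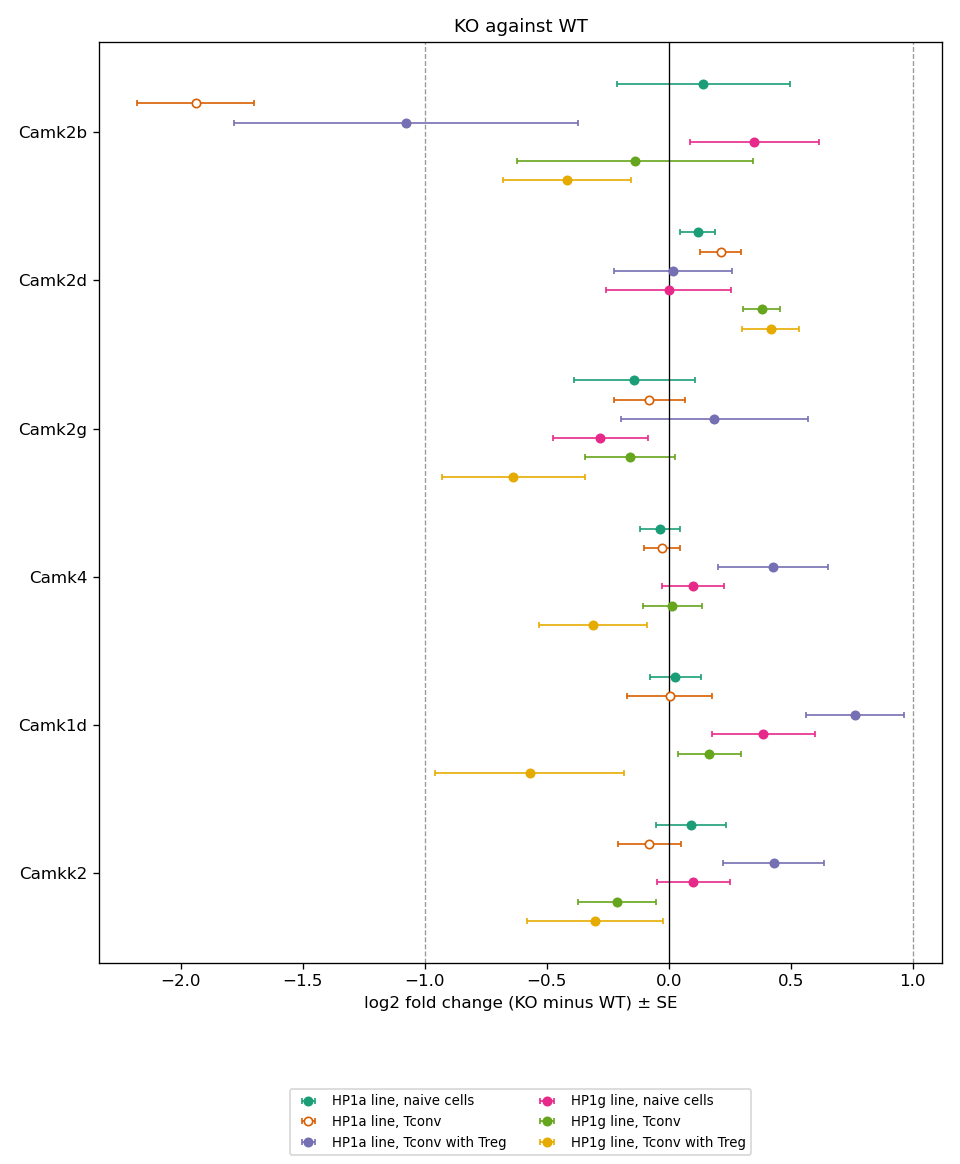
Log2 fold change of KO over WT (x axis) for 6 members (y axis) in naive cells, Tconv and Tconv with Treg of each line, with bars for the SE and dashed lines at the fold threshold; open circles mark the untested contrast that chose the set. Camk2b in HP1a Tconv stands at -1.94, Camk2b in HP1a Tconv with Treg at -1.08, and the other members stay inside the dashed lines.

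The presence of Treg changed no tested member past the threshold. In HP1a WT Tconv, where Treg left 3.54% of genes called higher and 2.43% called lower, 3 of 5 members had an unadjusted p under 0.05, as had 3514 of all 15627 genes. Camkk2, the upstream kinase gene, went from 32.8, 39.8 and 39.3 CPM without Treg to 24.5, 26.8 and 17.4 CPM with Treg, a difference that missed the correction (-0.69, SE 0.199, adjusted p = 0.0886 by edgeR's quasi-likelihood test; DESeq2 adjusted p = 0.0249). Camk1d went from 57.1, 41.9 and 62.4 to 26.9, 29.1 and 38.5 CPM (-0.75, SE 0.219, adjusted p = 0.09; DESeq2 adjusted p = 0.0236). Camk2d went the other way, from 101, 92.9 and 90.0 to 161, 159 and 102 CPM (0.59, SE 0.192, adjusted p = 0.121 by edgeR's quasi-likelihood test). Without replicate 3 with Treg, which correlated least with its replicates, all genes called went from 932 to 1450. No member was called in that fit either.

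In HP1a KO Tconv the Treg differences of Camkk2 and Camk1d were -0.16 (SE 0.136) and 0.02 (SE 0.146), and in HP1g WT Tconv -0.19 (SE 0.148) and 0.03 (SE 0.108), none past the test. In HP1g KO Tconv they were -0.26 (SE 0.291, adjusted p = 0.882) for Camkk2 and -0.68 (SE 0.402, adjusted p = 0.753) for Camk1d by edgeR's quasi-likelihood test. Camk2d was higher with Treg in these 3 groups too, none past the test. Its differences were 0.41 (SE 0.171) in HP1a KO, 0.18 (SE 0.0701) in HP1g WT and 0.24 (SE 0.133) in HP1g KO Tconv. Their adjusted p were 0.31, 0.713 and 0.742 by the same test. At an unadjusted p under 0.05 stood 1, 1 and 0 members, beside 2551, 1095 and 1294 of all genes. All genes called were 0.44% in HP1a KO, 0.0126% in HP1g WT and 0% in HP1g KO Tconv. The Treg effect of HP1a WT minus that of HP1g WT Tconv was -0.80 (SE 0.255, adjusted p = 0.151) for Camk1d and -0.51 (SE 0.250, adjusted p = 0.358) for Camkk2, with 1.56% of genes called. For Camk2b the untested Treg difference was -0.63 (SE 0.344) in HP1a WT and 0.23 (SE 0.695) in HP1a KO, and the tested one was -0.27 (SE 0.237, adjusted p = 0.862) in HP1g WT and -0.53 (SE 0.556, adjusted p = 0.873) in HP1g KO Tconv. Summed Treg markers ran from 352 to 388 CPM in the HP1a WT libraries without Treg and from 720 to 945 CPM in those with Treg, and their part in these values was not tested. The Camk1d values of HP1a WT Tconv with Treg also enter its KO difference with Treg and the differences between lines with Treg. These are thus not separate observations.

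**Figure D5:**
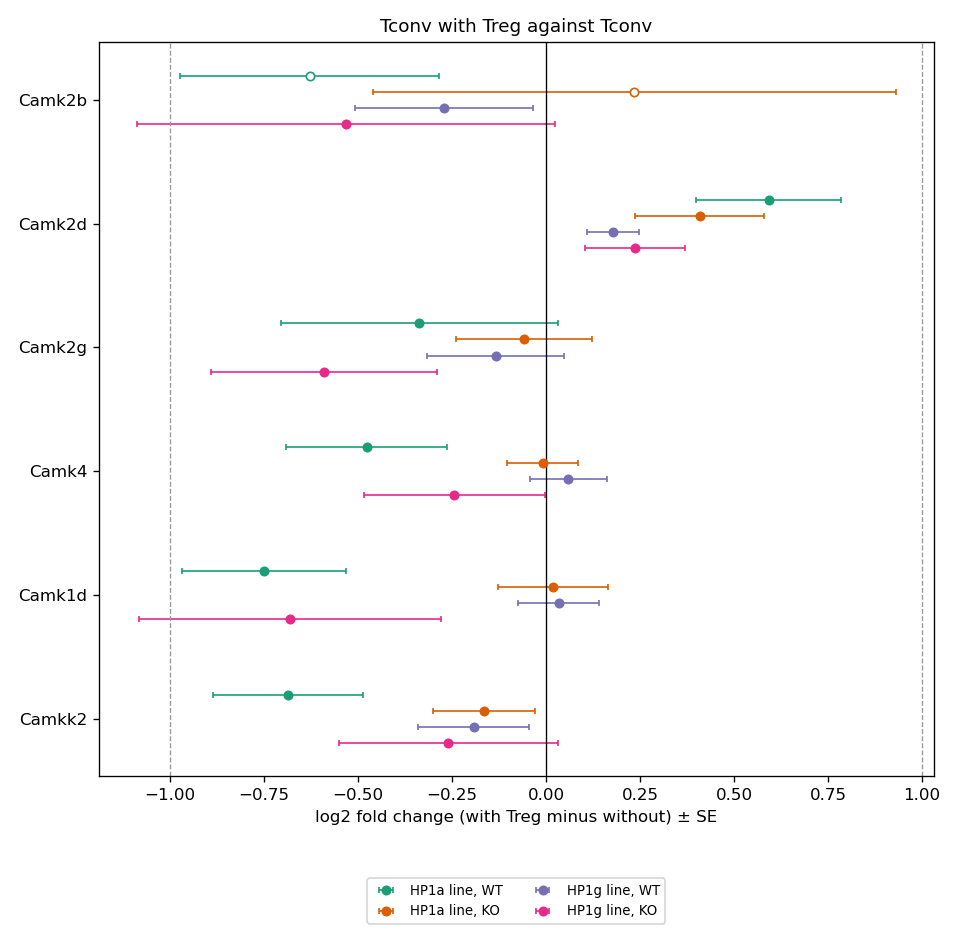
Log2 fold change of Tconv with Treg over Tconv alone (x axis) for 6 members (y axis) in WT and KO cells of each line, with bars for the SE and dashed lines at the fold threshold; open circles mark untested values. Camkk2 and Camk1d stand at -0.69 and -0.75 in HP1a WT cells and closer to 0 in HP1a KO cells, and this difference between genotypes was not tested.

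The tests of differences between effects called no member. The genotype effect on the Treg difference in the HP1g line gave 0 members with 0% of genes called, 667 genes at an unadjusted p under 0.05 and 15 by DESeq2. The genotype effect on activation in the HP1g line gave 0 members with 0.0235% of genes called. The activation effect of the HP1a line against the HP1g line, added after the values were seen, gave 0 members with 0.575% of genes called in KO cells and 0 members with 0.0117% in WT cells; with no fold threshold, Camk2d was the 1 member to pass in KO cells, beside 1.1% of genes.

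Camk4, on chromosome 18 (chr18:33067984-33328821, plus strand), passed the adjusted p in no comparison, and its group means ran from 54.3 ± 15.8 to 82.9 ± 2.67 CPM, n = 3 each. Its lowest libraries were HP1a WT Tconv with Treg replicate 3 at 38.2 CPM and HP1g KO Tconv with Treg replicate 1 at 45.8 CPM, and the same libraries held the lowest Camkk2, at 17.4 and 18.7 CPM. Camk2a, also on chromosome 18 (chr18:61058473-61121224, plus strand), is the neuronal alpha subunit gene; no library exceeded 18 counts or 0.335 CPM, 12 of 35 libraries held more than 3 counts, and it passed the filter on low counts in the HP1a naive comparison alone. A count of 0 allows up to 3 counts, from 0.0446 to 0.0816 CPM over the libraries, which covers counting error only.

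Of a list of 54 further genes of Ca2+ and calmodulin signalling, 4 were called higher and 3 lower on activation in HP1a WT cells, 3 and 1 in HP1a KO, 10 and 2 in HP1g WT, and 6 and 1 in HP1g KO cells, of 49, 50, 49 and 49 tested. Beside these stand the 12.9%, 12.4%, 15% and 15.7% of all genes called higher and the 10.2%, 7.24%, 8.55% and 7.3% called lower. The list's median log2 fold change was -0.04, -0.03, 0.14 and -0.18, against -0.04, -0.01, -0.03 and 0.02 over all genes. None of the 3 calmodulin genes was called. At an unadjusted p under 0.05 stood 3, 3, 0 and 2 of them by edgeR's quasi-likelihood test, in the same order. Their median log2 fold change was 0.75, 0.61, 0.12 and 0.36.

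Camk2n1, which encodes an inhibitor protein of CaMKII, rose on activation from 0.307 to 7.92 CPM in HP1a WT cells (log2 fold change 4.70, adjusted p = 4.53e-05 by edgeR's quasi-likelihood test) and from 0.363 to 4.64 CPM in HP1a KO cells (3.69, adjusted p = 0.000145). Atp2b4, a plasma membrane Ca2+ pump gene, rose from 0.404 to 45.3 CPM in HP1a WT and from 0.488 to 48.3 CPM in HP1g KO cells, with log2 fold changes of 6.83 and 6.64. Atp2b1, another such pump gene, rose in HP1a KO cells by 1.24 and in HP1g WT cells by 1.47 on the log2 scale. Camk2n1, Atp2b4 and Atp2b1 were called higher in all 4 activation comparisons.

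Ppp3cc, a calcineurin catalytic subunit gene, rose from 105 to 237 CPM in HP1a WT cells (1.18, adjusted p = 2.75e-05 by edgeR's quasi-likelihood test). Itpr1, an inositol trisphosphate receptor gene that releases stored Ca2+, rose from 48.3 to 117 CPM in HP1g KO cells (1.30, adjusted p = 4.57e-05). Rcan3, which encodes a regulator of calcineurin, fell from 77.8 to 19.6 CPM in HP1a WT cells (-1.98, adjusted p = 6.39e-05) and from 64.5 to 23.2 CPM in HP1g KO cells (-1.45, adjusted p = 5.01e-05).

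Outside activation, Hdac7, a class IIa histone deacetylase gene, was the 1 gene of the list called. It rose with Treg in HP1a WT Tconv from 66.3 to 163 CPM (1.32, SE 0.141, adjusted p = 0.00292 by edgeR's quasi-likelihood test). The Treg effect on it was higher by 1.44 in HP1a WT than in HP1g WT Tconv (adjusted p = 0.00254 by the same test). The KO effect with Treg was lower by 1.67 in the HP1a than in the HP1g line (-1.67, adjusted p = 0.00933). Hdac7 was thus 1 of 48, 50 and 52 list genes tested, in that order. Over all genes, 3.54% were called higher and 2.43% lower in the first, and 1.56% and 2.72% in either direction in the others. Summed Treg markers ran from 352 to 388 CPM in HP1a WT Tconv and from 720 to 945 CPM with Treg, and their part was not tested.

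By the correlation of group means over the 12 groups, the genes most like Camk2b among 10099 were Selenon (r = 0.931), Grb7 (0.916), Gfi1 (0.911), Osgin1 (0.902) and Fam185a (0.899). Over the 35 libraries their r was 0.76, 0.742, 0.769, 0.834 and 0.76, and Osgin1 had the highest r of all candidates. Groups share line and condition, and the Camk2b means include the HP1a Tconv values that chose the set, so these are descriptions. The nearest gene to Camk2g was Tktl1 (0.981), to Camk2d Zranb3 (0.935), to Camk4 Pwwp3a (0.969), to Camk1d Dock10 (0.954) and to Camkk2 Armc7 (0.96). Over the 35 libraries the r was 0.883 for Tktl1, 0.791 for Pwwp3a and 0.899 for Dock10, but 0.53 for Zranb3 and 0.705 for Armc7, which then ranked 298 and 113 among the candidates. Among the members themselves, Camk2b had r = 0.667 with Camk2g and 0.132 with Camk2d, and Camk1d 0.725 with Camkk2.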

How the data were processed

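The deposited table gives, per gene and library, the estimated counts that the authors made by trimming paired reads with Trim Galore, aligning with STAR to GRCm39 and quantifying with Salmon in nf-core/rnaseq; reads shared by paralogues or isoforms are apportioned by Salmon. Counts were rounded and tested with edgeR 4.0.16 in R 4.3.3 (TMM, filterByExpr, quasi-likelihood, Benjamini-Hochberg over all genes), within the groups compared; called means adjusted p under 0.05 and absolute log2 fold change above 1. CPM use TMM factors over 35 libraries. DESeq2 1.42.0, RLE factors, no filter, no fold threshold, 1 fit of all libraries, a replicate block and leaving out each library were alternatives. The scripts were tested on simulated data. Positions and the windows before each gene came from GRCm39 with GENCODE vM39, whose release may differ from the authors' annotation. No protein sequence is printed. Named genes were the members, the called genes of the pathway list (at most 4 per comparison, by p), and, by Pearson r over 12 group means of log2 CPM (prior count 2), the 5 genes most like Camk2b and the nearest to each other member among genes of at least 5 CPM in a group. Members, lists and comparisons were chosen with earlier results of these data known. With KO against WT, same-numbered libraries deviated together in every pair in HP1a naive cells (r 0.29 to 0.659) and HP1g Tconv (r 0.112 to 0.431). HP1g Tconv with Treg did so in its 2 pairs (r 0.198 and 0.383). In every other comparison the lowest r was at most 0.0994.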

Additional observations from a re-analysis of the deposited data

Results flagged for a closer look

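The activation effect on Camk2d differed between HP1a KO and HP1g KO cells by -0.732 on the log2 scale (adjusted p = 0.0276 by edgeR's quasi-likelihood test), a test of the difference that passed the adjusted p but not the fold threshold. The comparison was added after the values were seen, and its adjusted p was not under 0.05 in 7 of the 12 fits that left out a library. In WT cells the same difference was -0.45 (adjusted p = 0.35). All 3 HP1a KO Tconv libraries lay below, and all 3 HP1g KO Tconv libraries above, the naive libraries of their line. Naive means already differed, at 129 CPM in HP1a KO and 118 CPM in HP1a WT against 94.3 CPM in HP1g KO and 94.9 CPM in HP1g WT. The missing protein cannot be told apart from other differences between the lines.

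The library of HP1g KO Tconv with Treg that the study set aside stood above all 3 HP1g WT libraries with Treg for Camk2b, Camk1d and Camk2d, on CPM scaled over all 36 libraries, and for Camk2a, which was near 0 in all of them (0.0695 against at most 0.0398 CPM). It held 39.0 CPM of Camk2b, where the WT libraries reached 21.3 CPM and the 2 KO libraries in use 12.8 CPM. It held 78.2 CPM of Camk1d, against 66.3 CPM at most in WT. It held 126 CPM of Camk2d, against 119 CPM at most in WT and at least 142 CPM in the KO libraries in use. Camk4 lay the other way, at 25.0 CPM against 65.5 to 80.8 CPM in WT and 44.6 to 71.5 CPM in the KO libraries in use. Camkk2, at 24.9 CPM, lay just under the lowest WT library (25.0 CPM), and Camk2g, at 18.2 CPM, lay within the WT range of 15.1 to 21.1 CPM.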

How the results depend on the processing

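The count of members called was recomputed in 19 comparisons. It kept to within 1.5 times in 107 of 118 alternatives that left no library out and in 135 of 146 that did. Outside the comparisons of Tconv against naive cells the main count was 0, and a count that stayed at 0 was taken as kept. The tally follows the number and not the gene. In HP1a KO cells on activation, without naive replicate 2 or Tconv replicate 1, the count stayed at 1 while Camk2a replaced Camk2g. On activation, with no fold threshold, 2 members passed in HP1a WT, 3 in HP1g WT and 4 in HP1g KO cells, and 1 passed in the difference of activation between HP1a KO and HP1g KO cells. DESeq2, no filter and 1 fit of all libraries each gave 2 in HP1a KO cells, where Camk2a, at 8 to 18 counts in the naive libraries, joined Camk2g. No filter and 1 fit of all libraries each gave 1 in HP1g KO cells. For the KO effect with Treg between the lines, DESeq2 and 1 fit of all libraries each gave 1. Leaving out a library gave 0 to 1 in HP1a WT, 1 to 2 in HP1a KO, 1 to 2 in HP1g WT and 1 to 2 in HP1g KO cells on activation. It gave 0 to 1 for HP1g KO against WT with Treg, for the genotype effect on the Treg difference and for the KO effect with Treg between the lines. The Camk2b value that chose the set ran from -2.28 to -1.77. The replicate block changed no count of members. It called 0 in HP1a naive cells and in HP1g Tconv without and with Treg, where same-numbered libraries deviated together. The genes called in all went there from 0 to 12, from 7 to 74 and from 0 to 30. Of 342 alternatives for single members, 322 kept their side of the threshold, 10 lost it, 10 gained it and 0 changed sign. RLE factors moved the median of all genes by at most 0.0322. Without TMM factors 80 of 84 group levels moved by less than the SD. The causes were not tested. Groups of 3 libraries limit all comparisons, and Camk2a lies at the counting floor.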
